A study of Mus musculus with 10 samples.

Results

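The first 668 nucleotides of mouse 18S rRNA, its 5′ domain, were examined position by position for ribose 2′-O-methylation by RiboMeth-seq. The members are the 668 positions from 4008 to 4675 of the 45S precursor, taken by coordinate alone, out of 13591 positions measured (13400 of 45S and 191 of the spliceosomal RNA U2). Positions below are counted from the first nucleotide of 18S, which is position 4008 of 45S. In the method, RNA is broken by mild alkaline hydrolysis and the read ends are counted at every nucleotide. A 2′-O-methyl group blocks the break at its own nucleotide, so a methylated position shows few ends beside its neighbours.

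The series holds 10 libraries in 5 groups of 2, labelled as biological replicates A and B. Untreated mouse embryonic stem cells (ESCs) form one group. Neurons, made from such cells by inducing Ngn2 with doxycycline, form the remaining 4, and they took up an antisense oligonucleotide (ASO) from the medium. In the Snord101 set an ASO against the small nucleolar RNA (snoRNA) Snord101 was compared with a non-targeting ASO, and in the Snord89 set an ASO against Snord89 was compared with a non-targeting ASO in libraries of its own. All 8 neuron cultures received 10 uM of ASO, and RNA was taken 72 to 96 hours later. All neurons thus share the ESC origin, Ngn2 induction and exposure to an ASO, and the tables hold only rRNA and U2, so neither neuronal markers nor the level of either snoRNA could be checked. The Snord101 ASO is shown because it is the treatment of that set. Capitals mark the 10 central deoxynucleotides of the gapmer, which direct cleavage of the target by RNase H.
Snord101 ASO: gggtaTCCGACAATTcaagt

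Most 2′-O-methyl groups of rRNA are placed by box C/D snoRNPs, in which the snoRNA pairs with the rRNA and the methyltransferase fibrillarin modifies the paired nucleotide a fixed distance from box D. Losing one guide snoRNA therefore typically affects its own target nucleotide. The 5′ domain folds into much of the body of the small ribosomal subunit and is dense in such sites, among them those guided by SNORD27, SNORD44 and SNORD14.

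Across the 8 neuron libraries, 7057202 to 12997055 read ends fell within the 5′ domain, 8.66% to 9.78% of the 45S ends of a library, and the median position held 8310.5 to 15207.5 ends. The ESC libraries were shallower, with 1334355 (A) and 1174579 (B) ends in the domain and a median of 1066.5 and 1000.0 ends a position. The ESC table counts 5′ ends only, whereas both neuron tables add 5′ and 3′ ends, so ESC and neuron values are given side by side without a test. The deposited score is 1 minus the end ratio, and is floored at 0. The end ratio divides the ends at a nucleotide by the flanking mean, a weighted mean of its 6 neighbours on either side. Between the libraries of a group the mean absolute difference in score over the 668 positions was 0.0189 (Snord89 ASO) to 0.0323 (Snord101-set controls).

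A list of 23 2′-O-methylation sites known from human 18S rRNA was laid on the domain. Sites up to Cm174 matched without a shift and sites from Um354 matched 1 position downstream, in all 3 tables. The shifts were set from the scores, so the fit of the list is a description and supports nothing by itself. Of the 23 sites 22 are members, and the last, Am668 in human, falls on position 669, 1 nucleotide beyond the domain. The base names below are those of the human sites.

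The catalogued sites stood out as gaps in the end profile. In all 10 libraries 20 of the 22 scored at least 0.75, the level taken here as protected, against 7 of the 646 other positions (1.08%). At 0.95 or more in all 8 neuron libraries there were 16 of the 22 sites and 0 of the 646 others. The median score of the 22 sites lay between 0.971 and 0.989 in every library, whereas that of the other positions lay between 0.0278 and 0.0808. In all 10 libraries 10 of the 22 sites held the fewest ends of their 13-nucleotide window, as did 7 of the 646 others.

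**Figure D1:**
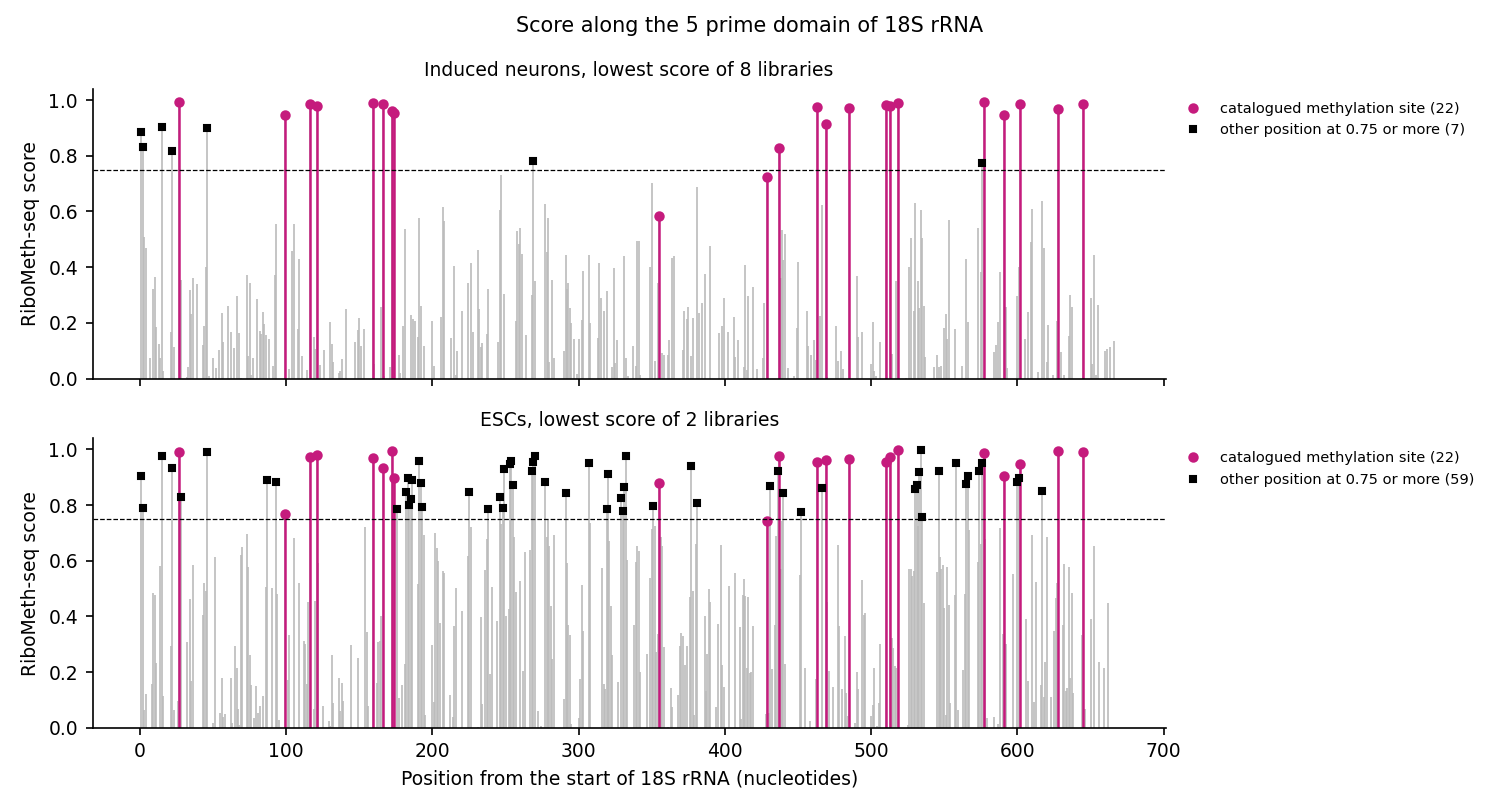
Lowest RiboMeth-seq score over 8 neuron libraries (top) and over 2 ESC libraries (bottom) against position from the start of 18S rRNA. Pink points are the 22 catalogued sites, black squares other positions at 0.75 or more (7 in neurons, 59 in ESCs), grey lines all other positions, and the dashed line marks 0.75.

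At the 5′ end, Am27, the target of SNORD27, scored 0.994 (lowest), 0.997 (median) and 0.998 (highest) in the neuron libraries and 0.992 and 0.993 in ESCs. Am99, the target of SNORD57, scored 0.945, 0.955 and 0.959 in neurons but 0.769 and 0.784 in ESCs. It was thus the catalogued site with the second lowest ESC score, although no neuron library fell below 0.945. Um116, guided by SNORD42, scored 0.988 to 0.993 in neurons with a median of 0.990, and 0.974 and 0.976 in ESCs. Um121, guided by SNORD4, lay 5 nucleotides further and scored 0.978 to 0.994 in neurons.

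A cluster of 4 catalogued sites lies between positions 159 and 174. Am159 scored 0.989 to 0.994 in neurons with a median of 0.993, and 0.969 in both ESC libraries. Am166, the target of SNORD44, scored 0.987 to 0.991 in neurons with a median of 0.989, and 0.957 and 0.932 in ESCs. Um172 scored 0.962 to 0.985 in neurons with a median of 0.976, and 0.993 in both ESC libraries. Cm174 scored 0.954 to 0.966 in neurons with a median of 0.963, and 0.898 and 0.901 in ESCs. In such a cluster a protected neighbour lowers the flanking mean: 10 of the 22 sites have another within 6 nucleotides. Leaving catalogued neighbours out of the flanking means raised the group means of these scores by at most 0.01 (Cm174 in ESCs, from 0.899 to 0.909).

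The middle of the domain, from 175 to 354, carries no catalogued site. The next 3 sites had the lowest scores of the list in neurons. Position 355 (Um354 in human), guided by SNORD90, scored 0.583 (lowest), 0.823 (median) and 0.921 (highest) in neurons and 0.885 and 0.879 in ESCs. Position 429 (Um428), guided by SNORD68, scored 0.723, 0.832 and 0.846 in neurons and 0.744 and 0.774 in ESCs. Position 437 (Gm436), guided by SNORD100, scored 0.830, 0.845 and 0.852 in neurons and 0.983 and 0.978 in ESCs. The neuron libraries were thus narrowly spread at 437 and widely spread at 355.

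Another 7 sites lie between 463 and 577. The target of SNORD14, position 463 (Cm462), scored 0.975 to 0.994 in neurons with a median of 0.990. Position 469 (Am468), guided by SNORD83, scored 0.915 to 0.960 with a median of 0.947, the lowest of these 7. Position 485 (Am484), guided by SNORD16, scored 0.973 to 0.987 with a median of 0.981. The 3 sites at 510 (Gm509, SNORD11), 513 (Am512, SNORD70) and 518 (Cm517, SNORD56) form another cluster, and their neuron medians were 0.990, 0.989 and 0.993. Position 577 (Am576), guided by SNORD93, had the narrowest range, 0.993 to 0.995. All 7 sites scored at least 0.9536 in both ESC libraries.

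The last 4 members of the list were also protected in every library. Position 591 (Am590), guided by SNORD62, scored 0.948 to 0.980 in neurons with a median of 0.963, and 0.929 and 0.905 in ESCs. Position 602 (Gm601), guided by SNORD103, scored 0.985 to 0.996 with a median of 0.992. Positions 628 (Um627) and 645 (Gm644) had neuron medians of 0.971 and 0.997, and 0.992 or more in ESCs. Position 669 (Am668), just outside, scored 0.972 to 0.979 in neurons, within the range of the sites inside. By base, the 22 sites comprise 9 A, 6 U, 4 G and 3 C, and the median of the neuron medians was 0.989, 0.974, 0.991 and 0.990 in that order. These bases are those of human sites and are not replicates of a condition.

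**Figure D2:**
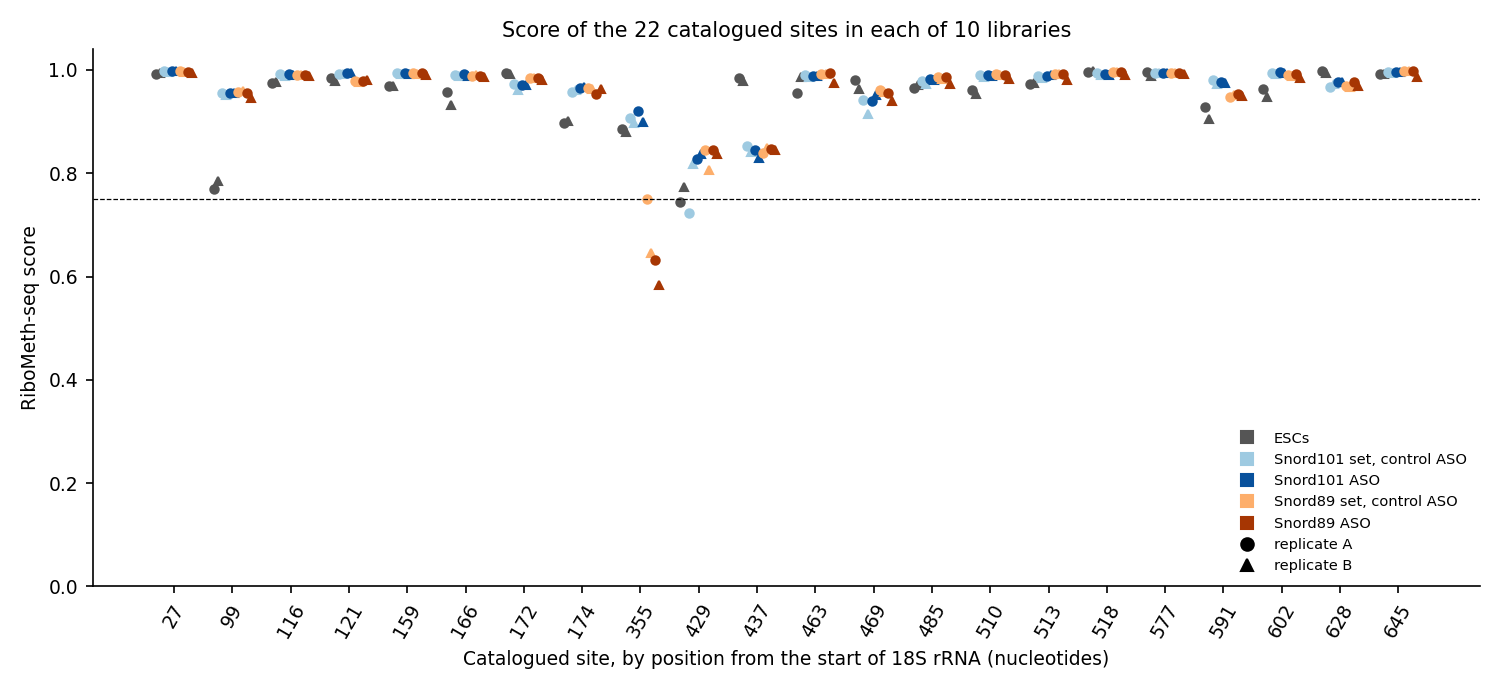
RiboMeth-seq score of each of the 22 catalogued sites in the 10 libraries; colour gives the group, circles replicate A and triangles replicate B, and the dashed line marks 0.75. Only 355 and 429 have points below 0.75, and at 355 the 4 libraries of the Snord89 set lie below all others.

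Outside the catalogue, 7 positions reached 0.75 in all 10 libraries. Position 15 scored 0.904 to 0.954 in neurons and 0.980 ± 0.0044 (SD, n = 2) in ESCs. Position 46 scored 0.901 to 0.937 in neurons and 0.992 ± 0.0020 (SD, n = 2) in ESCs. Both kept high scores when the flanking mean was replaced by the flanking median, at 0.865 and 0.897 or more in every library. Position 22 scored 0.819 to 0.875 in neurons, 5 nucleotides before Am27. Position 269 scored 0.781 to 0.831, and the nearest catalogued site is 86 nucleotides away. Position 576 scored 0.774 to 0.833 and is the neighbour of Am576 at 577. With the flanking median, 22 and 269 stayed at 0.778 and 0.768 or more in every library, whereas 576 scored 0.728 in its lowest neuron library, below 0.75.

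The other 2 of these positions are the first nucleotides of 18S. Position 1 scored 0.885 to 0.916 and position 2 scored 0.831 to 0.877 in neurons. Their windows contain position 4006 of 45S, 2 nucleotides before the first nucleotide of 18S, where the neuron libraries held 35010 to 148620 ends, whereas positions 1 and 2 themselves held 576 to 2463. Over the 10 libraries that nucleotide supplied 49.1% to 82.4% of the weighted flanking mean of position 1. With the flanking median in place of the mean, position 1 fell to 0.524 to 0.658 in neurons and position 2 to 0.507 to 0.645.

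In ESCs protection was called at more positions: 80 of the 668 scored at least 0.75 in both libraries, 21 of them catalogued, whereas 27 did so in all 4 control neuron libraries, 20 of them catalogued. The 59 non-catalogued ESC positions include values as high as those of methylated sites, since 10 scored at least 0.95 in both libraries. The ESC libraries held few ends, however: 8 of the 22 catalogued sites had under 10 ends in at least 1 ESC library, and the lowest flanking mean was 4.57 ends in ESC B against at least 2531 in neurons. The different depth and the different counting of ends cannot be told apart from cell type here.

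The domain carried a higher share of protected positions than the rest of 18S. In the 8 neuron libraries 4.34% to 5.24% of its positions scored at least 0.75, against 2.27% to 3.20% of the 1189 remaining positions of 18S. The means were 4.87% ± 0.384 and 2.76% ± 0.279 (SD, n = 8), and the difference was 2.10 percentage points, higher in 8 of 8 libraries. All libraries measure the same fixed positions, so a test over libraries does not say whether the domain is denser in protected positions, and no p is given. By number the domain held 29 to 35 such positions and the rest of 18S 27 to 38. At a threshold of 0.5 the difference was -0.13 points, so the excess depended on the threshold. In ESCs the shares were 13.17% and 13.02% in the domain and 12.8% and 10.8% in the rest of 18S.

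The other extreme of the profile is formed by positions with many ends. Position 289 held 0.480% (lowest), 0.685% (median) and 1.06% (highest) of the domain's ends in neurons, and 1.55% and 1.14% in ESCs. Position 544 held 0.392%, 0.694% and 0.914% in neurons, and 0.331% and 0.473% in ESCs. Position 145 held 0.570%, 0.651% and 0.831% in neurons, and 0.377% and 0.292% in ESCs. At these 3 positions the neuron ends were 1.479 to 2.498 times the flanking mean. A score of 0 in all 10 libraries was found at 122 of the 646 non-catalogued positions.

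The Snord101 comparison asks which nucleotides lose protection when that snoRNA is depleted. No member was called: edgeR's quasi-likelihood test, with Benjamini-Hochberg adjustment over all 12997 positions tested and a threshold of 0.05, called 0 of 668, against 0.369% of all positions tested. At an unadjusted p under 0.05 there were 83 members (12.4%), against 12.8% of all positions. The lowest adjusted p belonged to position 225, not a catalogued site, whose end ratio in the controls was 1.551 (A) and 1.497 (B), and with the Snord101 ASO it was 2.28 (A) and 2.70 (B). The groups did not overlap there, and the log2 end ratio of knockdown over control was 0.71 (SE 0.10; adjusted p = 0.0731 by edgeR). The score does not register this difference, since it was 0 in all 4 libraries. The count of 0 rests on both controls: without control A edgeR called 36 members (5.39%, against 6.46% of all positions), 6 of them catalogued. Without control B it called 120 (17.96%, against 25.5%), 3 of them catalogued. On all 4 libraries DESeq2 called 15 members (2.25%, against 4.97%), none of them catalogued, and limma called 0 members and 0 positions in all.

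At the 22 catalogued sites the Snord101 ASO left the scores close to the controls. The differences in mean score ran from -0.009 at 437 to 0.0623 at 429, with a median of 0.00154, and 0 of 22 passed 0.1. On the log2 end ratio, 18 of the 22 had fewer ends and 4 had more after the knockdown, with a median of -0.23 (-0.46 to 0.29; median SE 0.20) beside 0.02 over all members and 0.04 over all positions tested. The lowest adjusted p among them was 0.291 by edgeR, at Um121, with a log2 end ratio of -0.46 (SE 0.15). Um121 was the one catalogued site called both without control A (-0.50, SE 0.16; adjusted p = 0.0385 by edgeR) and without control B (-0.42, SE 0.17; adjusted p = 0.0468 by edgeR). The other sites called were 116, 469, 485, 513 and 645 without control A, and 429 and 628 without control B. In this set control B had the highest end ratio of the 4 libraries at 16 of the 22 sites. The median end ratio over the sites was 1.09% in control A, 1.51% in control B, 1.15% in knockdown A and 1.10% in knockdown B. Without control B the direction turned: 9 sites had fewer ends and 13 more, with a median log2 end ratio of 0.05.

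The largest score difference among the 22 sites was that of 429, the target of SNORD68. Its score was 0.723 in control A, 0.818 in control B, 0.828 in knockdown A and 0.837 in knockdown B. The knockdown lay above both controls, but the gap between the controls was wider than the gap from control B to the knockdown. The log2 end ratio was -0.46 (SE 0.21; adjusted p = 0.428 by edgeR). Without control B it was -0.73 (SE 0.12; adjusted p = 4.86e-08 by edgeR), the 1 of 16 alternatives under which 429 was called. Over the 16 the adjusted p reached 0.937.

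The Snord89 comparison asks the same for Snord89. Again edgeR called 0 of 668 members, against 0.297% of the 13141 positions tested, and 46 members (6.89%) had an unadjusted p under 0.05, against 9.58% of all positions. The lowest adjusted p was 0.206 by edgeR, at position 455. Without control A edgeR called 19 members (2.84%, against 4.52% of all positions) and without control B 3 (0.449%, against 0.9002%), of which 1 was the catalogued site 355 (log2 fold change of ends over flank 0.65 ± 0.10 SE, edgeR adjusted p = 0.0110). On all 4 libraries DESeq2 called 6 (0.898%, against 1.96%), and limma called 0 members and 0 positions in all. Among the catalogued sites the differences in mean score ran from -0.0902 at 355 to 0.0156 at 429, with a median of -0.00227, and 0 of 22 passed 0.1. On the log2 scale 17 of the 22 had more ends and 5 had fewer after the knockdown, with a median of 0.26 beside 0.00 over all members. Knockdown B had the highest end ratio at 16 of the 22 sites, with a median of 2.01% against 1.32% in both controls and 1.21% in knockdown A. Without knockdown B the direction turned: 13 sites had fewer ends and 9 more, with a median log2 end ratio of -0.03.

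At several sites the 2 knockdown libraries disagreed. At 645 the Snord89 set held 31 (control A), 36 (control B), 17 (knockdown A) and 147 (knockdown B) ends. Knockdown A thus lay below both controls and knockdown B above them, and the log2 end ratio was 1.49 (SE 0.82; adjusted p = 0.605 by edgeR). At Am27 and at 463 the log2 end ratios were 1.00 and 0.90 (SE 0.52 and 0.57; adjusted p = 0.583 and 0.666 by edgeR). These rest on few ends: at Am27 7 and 9 in controls and 10 and 21 after knockdown, and at 463 34 and 38 against 25 and 92. At 355, in contrast, the control scores were 0.7498 and 0.646 and the knockdown scores 0.632 and 0.583. The groups did not overlap, but the controls differed from each other by more than control B did from knockdown A, and the log2 end ratio was 0.37 (SE 0.15; adjusted p = 0.503 by edgeR).

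**Figure D3:**
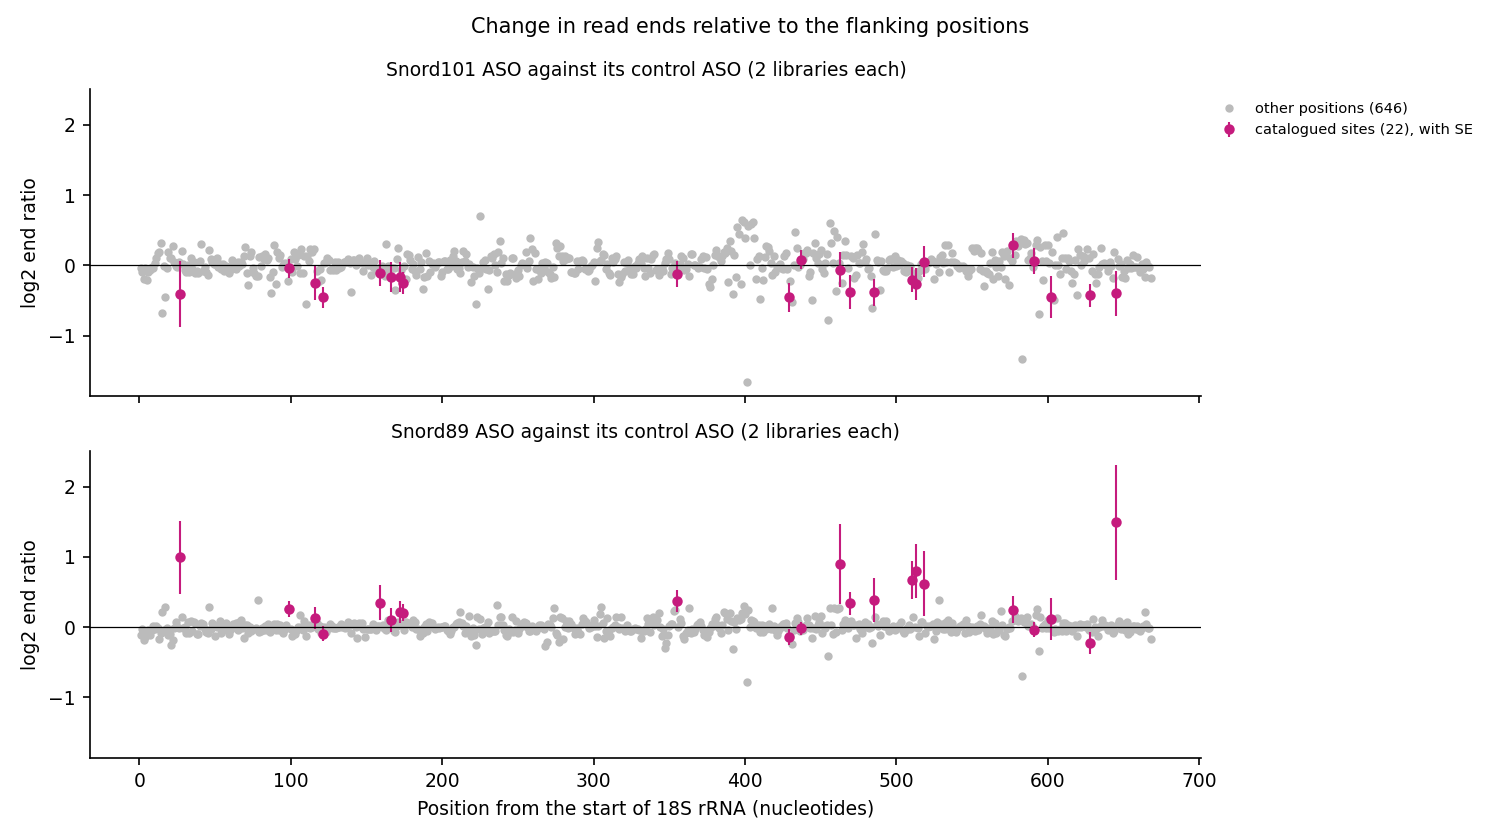
Log2 end ratio of knockdown over control (edgeR, 2 libraries a group) against position from the start of 18S rRNA, for the Snord101 ASO (top) and the Snord89 ASO (bottom). Pink points are catalogued sites with their SE, grey points the other members; 0 of 668 passed the adjusted threshold in either set, and the lowest grey points in both panels are positions 401 and 583.

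The difference between the knockdowns was tested directly as an interaction over the 8 neuron libraries. It called 0 of 668 members by edgeR, against 0.0693% of 12987 positions, with 56 members (8.38%) at an unadjusted p under 0.05, against 7.01% of all positions. The lowest adjusted p was 0.431 by edgeR. Among catalogued sites the lowest was 0.696, at 174 and 510. Without control B of the Snord101 set the interaction called 19 members (2.84%, against 4.82% of all positions), and DESeq2 called 2 (0.299%, against 0.608%). None of the 22 catalogued sites was called in any of these 3 comparisons as fitted on all libraries.

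Counts of score differences without a test gave more positions, none of them catalogued. A mean score lower by at least 0.1 with no overlap between the groups was found at 43 of 668 members in the Snord101 set (6.44%), against 11.0% of all positions tested. A score higher by at least 0.1 was found at 14 (2.10%), against 4.61%. In the Snord89 set 9 members were lower (1.35%) against 5.76%, and 4 were higher (0.599%) against 4.03%. The members' shares were thus below the background in both sets and directions. That background takes in every position with a mean flanking count of at least 10, whereas the lowest flanking mean in the domain was 2531 (Snord89-set control B). Whether depth accounts for the lower shares was not tested. These counts moved with single libraries: the 43 became 77 without control B, the 14 became 26 without control A, 33 without knockdown A and 9 without knockdown B, the 9 became 17 without control A, 18 without knockdown A and 6 without knockdown B, and the 4 became 2 without knockdown B.

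The 2 sets share no library, and 7 positions were lower in both, which is 16.3% of the 43 and 77.8% of the 9. Over all 12928 positions of 45S tested in both sets, 297 were lower in both, which is 20.8% of the 1426 lower in the Snord101 set and 39.5% of the 751 lower in the Snord89 set. The 7 members lower in both were 398, 399, 400, 402, 459, 461 and 593, and position 431 was higher in both. At 399 the Snord101-set scores were 0.652 and 0.437 in controls and 0.289 and 0.309 after knockdown, and 0.447 and 0.519 against 0.406 and 0.323 in the Snord89 set. The 3 largest falls in end ratio of the Snord101 set lay at 401, 455 and 583, which are named for this after their values were seen. Of the lower members, 13 of the 43 (30.2%) and 6 of the 9 (66.7%) lay within 6 nucleotides of these 3, against 5.39% of members. Ends at the 3 positions enter the flanking means of such neighbours, so the neighbours' scores are not independent of each other. Position 401 held 97505 and 30206 ends in controls of the Snord101 set, and 15602 and 14421 after knockdown.

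At 401 the replicates differed as well as the groups. There the end ratio was 8.24 and 2.99 in the Snord101-set controls, 1.67 and 1.88 with the Snord101 ASO, 2.12 and 4.31 in the Snord89-set controls and 2.05 and 1.72 with the Snord89 ASO. The knockdowns were lower than their controls in both sets, but 1 control library of each set was far above the other. The log2 end ratios were -1.66 (SE 0.44; adjusted p = 0.228 by edgeR) and -0.77 (SE 0.28; adjusted p = 0.442 by edgeR). At 583 they were -1.34 and -0.69 (SE 0.31 and 0.23; adjusted p = 0.181 and 0.407 by edgeR).

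With the flanking median in place of the mean, 31 members were lower in the Snord101 set, 23 of them among the 43, and 5 in the Snord89 set, 2 of them among the 9. At 399 the score with the flanking median was 0.417 and 0.326 in the Snord101-set controls against 0.278 and 0.290.

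More members were called between the 2 sets than in either knockdown comparison. This comparison of the 2 pairs of control libraries was added after the data were seen. Both pairs received a non-targeting ASO, so set, table and library preparation cannot be told apart. By edgeR 104 of 668 members were called (15.6%), against 7.38% of the 13025 positions tested, 50 with more and 54 with fewer ends in the Snord89-set controls. Among them were 3 catalogued sites. The count depended on single libraries: without either Snord89-set control it was 0, of members and of all positions, whereas without Snord101-set control A it was 153 (22.9%, against 11.3% of all positions) and without Snord101-set control B 190 (28.4%, against 19.7%).

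At 355 the end ratio was 0.0933 (A) and 0.103 (B) in the Snord101-set controls and 0.250 (A) and 0.354 (B) in the Snord89-set controls. The knockdown libraries followed their set, at 0.0795 and 0.101 with the Snord101 ASO and 0.368 and 0.417 with the Snord89 ASO, so the 4 libraries of one set did not overlap those of the other. The log2 end ratio of the Snord89-set over the Snord101-set controls was 1.62 (SE 0.21; adjusted p = 0.0273 by edgeR). The ESC libraries, with 0.115 and 0.121, lay near the Snord101 set. The profile around 355 also differed beyond the site itself, with no overlap between the sets at 10 of the 13 nucleotides from 6 before to 6 after. Such differences were widespread: over the 22 sites this number ran from 2 to 11 with a median of 7, and at the position itself the sets did not overlap at 5 of the 22 sites and 362 of 668 members (54.2%), against 33.0% of 12987 positions of 45S. For example, 4 nucleotides before it the ends were 1.41 to 1.74 times its flanking mean in the Snord101 set and 2.08 to 2.20 times in the Snord89 set, and 5 nucleotides after it 2.14 to 2.27 times and 1.41 to 1.78 times.

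**Figure D4:**
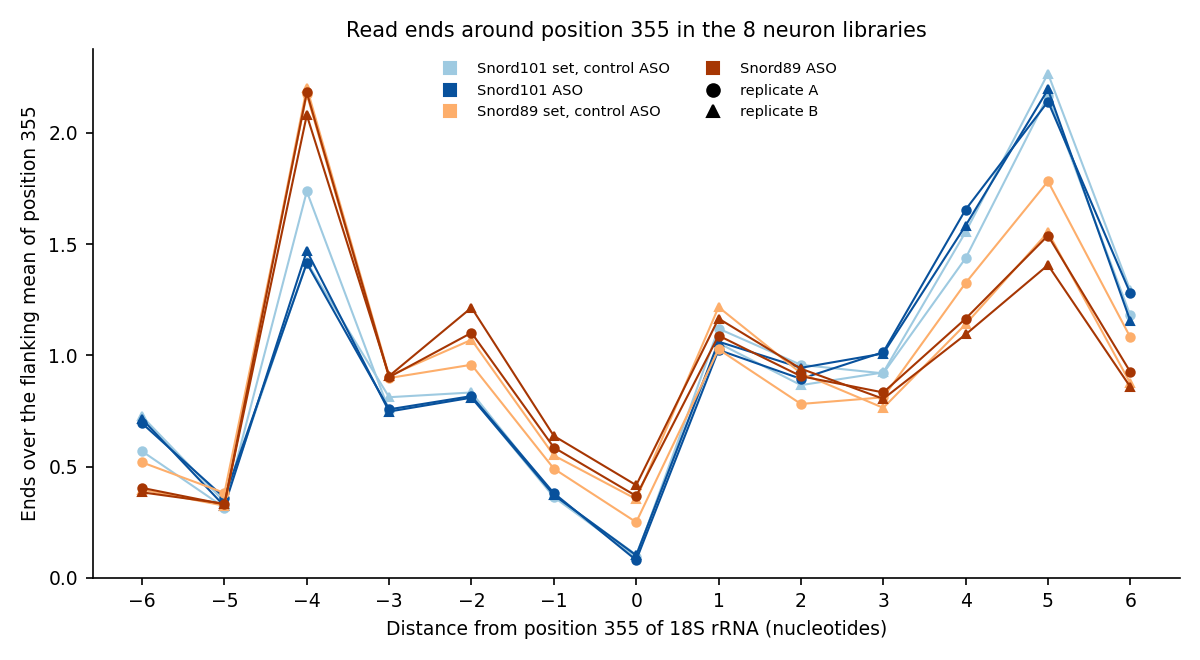
Read ends from 6 nucleotides before to 6 after position 355, divided by the weighted flanking mean of position 355, in the 8 neuron libraries; colour gives the group, circles replicate A and triangles replicate B. At distance 0 the Snord101 set lies at 0.0795 to 0.103 and the Snord89 set at 0.250 to 0.417, and the sets do not overlap at 10 of the 13 distances shown, all but -5, 1 and 2.

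At Um121 the end ratio was 0.00757 and 0.00799 in the Snord101-set controls and 0.0210 and 0.0225 in the Snord89-set controls. The sets did not overlap in any of the 8 libraries, and the log2 end ratio was 1.48 (SE 0.14; adjusted p = 0.0184 by edgeR). Because the site is almost fully protected, this difference amounts to scores of 0.992 against 0.979 and 0.978. At 591, the target of SNORD62, the end ratio was 0.0203 and 0.0264 against 0.0522 and 0.0483, with a log2 end ratio of 1.11 (SE 0.19; adjusted p = 0.0417 by edgeR). Again the libraries of each set lay together whichever ASO they had received. The profiles differed beyond these sites too, with no overlap between the sets at 7 of the 13 nucleotides around Um121 and 5 of 13 around 591.

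The remaining catalogued sites did not pass this test, and over all 22 the Snord89-set controls had fewer ends at 13 and more at 9. Um172, guided by SNORD45, missed the threshold narrowly in the direction of fewer ends. Its end ratio was 0.0271 and 0.0384 in the Snord101-set controls and 0.0150 and 0.0153 in the Snord89-set controls, and the sets did not overlap in any of the 8 libraries. The log2 end ratio was -1.11 (SE 0.22; adjusted p = 0.0533 by edgeR), about as large as that of 591. It was called under 8 of 15 alternatives, with adjusted p from 4.39e-05 (DESeq2) to 0.412, whereas 355, Um121 and 591 were each called under 11 of 15. Sites 469, 513, 645 and 429 were called under 4, 2, 2 and 1 of them, all with fewer ends in the Snord89-set controls.

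The catalogued sites with the next widest gaps in mean control score after 355 were 429, at 0.770 ± 0.067 against 0.826 ± 0.026, and 469, at 0.929 ± 0.019 against 0.959 ± 0.0023 (SD, n = 2). At 429 the controls overlapped, since Snord101-set control B at 0.818 exceeded Snord89-set control B at 0.807. With the replicate letter as a block, or with limma on the log ratio, 0 of 668 members were called, as without either Snord89-set control. At 355, Um121 and 591 the log2 end ratios then stayed between 1.05 and 1.85.

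**Figure D5:**
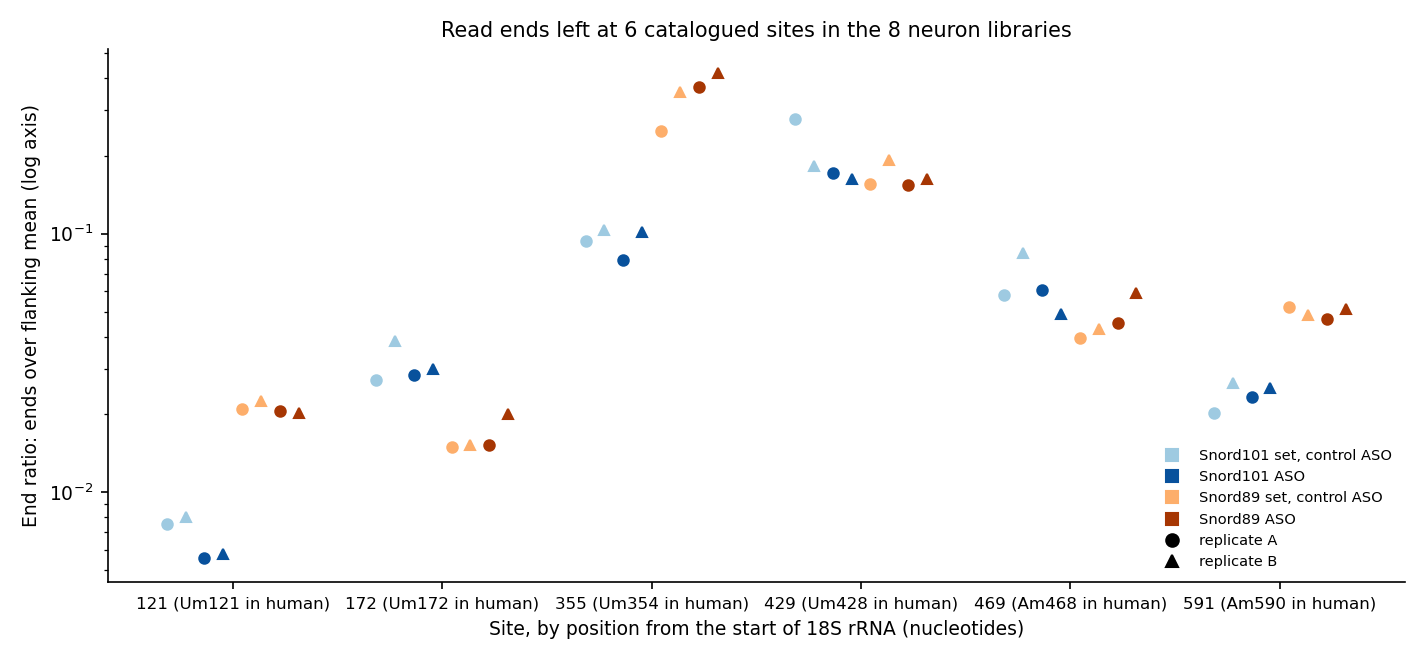
End ratio (ends at the site over its weighted flanking mean, log axis) at 6 catalogued sites in the 8 neuron libraries; colour gives the group, circles replicate A and triangles replicate B. At 121, 355 and 591 all 4 libraries of the Snord89 set lie above all 4 of the Snord101 set, at 172 all 4 lie below, and at 429 and 469 the sets overlap.

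Of the 10 called members with the largest log2 end ratios between the control pairs, 7 were not catalogued, from -1.35 at 279 to 0.94 at 558. At 279 the scores were 0.613 and 0.624 in the Snord101-set controls and 0.861 and 0.841 in the Snord89-set controls (log2 end ratio -1.35, SE 0.10; adjusted p = 0.0122 by edgeR). Its neighbour 278 moved the same way, from 0.532 and 0.576 to 0.791 and 0.780. At 558 the direction was opposite, with scores of 0.437 and 0.435 against 0 in both Snord89-set controls (log2 end ratio 0.94, SE 0.06; adjusted p = 0.0116 by edgeR). At 306 the scores were 0 and 0.097 against 0.550 and 0.497. In all of these the knockdown libraries lay with the controls of their own set.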

How the data were processed

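RiboMeth-seq libraries of total RNA were sequenced from 2 ESC cultures and 8 cultures of ASO-treated induced neurons. The authors deposited 3 tables. Per the file headers they hold whole-number counts of read ends per position and library (5′ ends in the ESC table, 5′ plus 3′ ends in the others) and a score per library, a fraction from 0 to 1. The submitters' processing notes name Trim Galore, cutadapt, Bowtie2 and bedtools. Their settings and the reference build are not given in the sources used here. The deposited score was recomputed from the counts (weights 1.0 for the nearest to 0.5 for the farthest of 6 positions on each side, floor 0) and came out within 1e-06 at every 45S position compared (13287 and 13316 in the ESC libraries, 13388 in each neuron library). The 10 deposited mean and spread columns were not used.

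Knockdown and control were compared by edgeR 4.0.16 (R 4.3.3), quasi-likelihood, with the log of the flanking mean as offset, over all positions with a mean flanking count of at least 10 and above 0 in every library, and no score minimum. P-values were adjusted by Benjamini-Hochberg over the whole table, with a threshold of 0.05. A positive log2 end ratio means more ends in the knockdown. The SE was obtained by dividing the size of the log2 end ratio by the root of the F statistic. Alternatives used DESeq2 1.42.0 and limma 3.58.1 (pseudocount 0.5), other windows and filters, the replicate letter as a block, and each library left out.

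Named positions were every catalogued site, up to 12 other positions protected in all libraries, the 3 with most ends, up to 10 called per comparison and the 3 sites with the widest gap between control sets. The list of 23 human sites and their guides came from general knowledge and was placed by a whole-number shift from -3 to 3. The members, the list and the tests were chosen with earlier results of these data known. With 2 libraries against 2, permutation cannot reach 0.05. P-values measure the spread between these cultures. The labels name no molecular identifiers, so end counts may include copies made by PCR. The sequence of the other targeting ASO is not reported here.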

Additional observations from a re-analysis of the deposited data

How the results depend on the processing

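Whether the replicate letters pair the libraries cannot be settled with 2 libraries a group. Over all positions, deviations of same-lettered control and knockdown libraries correlated at -0.129 in the Snord101 set and 0.0122 in the Snord89 set. Over the 668 members these correlations were -0.0881 and 0.177. With a replicate block the members called were 0 (Snord101; against 0.223% of all positions), 2 (Snord89; 0.299%, against 1.69%), 0 (interaction; against 0.0231%) and 0 (control sets; against 0%). With the Snord101 letters crossed, an alternative chosen after seeing the data, 5 were called (0.749%, against 2.88%).

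By DESeq2 the members called were 15 (Snord101), 6 (Snord89), 2 (interaction) and 210 (control sets; 31.4%, against 17.0% of all positions), and by limma 0 of each. One fit over the 4 neuron groups called 7 in the Snord101 comparison (1.05%, against 3.54%) and 202 between the control sets (30.2%, against 18.2%). When only positions with a mean score of at least 0.5 over all libraries, or in either group, were tested between the control sets, 17 of 81 members (21.0%, against 14.8%) and 24 of 103 (23.3%, against 18.3%) were called. With single libraries left out, the calls ran from 0 to 120 (Snord101, highest without control B), 0 to 19 (Snord89, without control A), 0 to 19 (interaction, without Snord101-set control B) and 0 to 190 (control sets, 0 without either Snord89-set control and 190 without Snord101-set control B). The cause was not tested. A group left with 1 library is assumed to vary like the other.

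At a score threshold of 0.5 the protected members were 165 in ESCs, 61 in control neurons and 50 in all 10 libraries, and the excess of the domain over the rest of 18S became -0.13 percentage points. At 0.9, 41 remained in ESCs. Without the shift of 1 position, 9 catalogued sites were protected in place of 20.

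With a score difference of 0.05 the Snord101 set had 87 lower and 45 higher members and the Snord89 set 28 and 20. With 0.2 these became 10 and 0, and 0 and 0. A window of 2 positions gave 7 higher (Snord101) and 0 higher (Snord89), and the flanking median 22 higher (Snord101) and 5 lower (Snord89). Leaving out single libraries gave 31 to 77 lower and 9 to 33 higher (Snord101), and 6 to 18 lower and 2 to 6 higher (Snord89). Of 330 recomputed group scores at catalogued sites 215 moved by less than the spread between replicates, and the largest move was 0.0922 at 355 in ESCs. Depth is lower in the ESC libraries, where 8 of the 22 catalogued sites had under 10 ends in at least 1 library.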
